A study of Mus musculus with 20 samples.

Results

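The genes of butyrate oxidation and ketogenesis were followed in the distal colon (DC) of mice fed resistant potato starch (RPS), the fermentable starch whose breakdown by colonic bacteria yields butyrate. The set was a list of names with no measured value in its rule, and it held 9 of the 26619 genes in the count table. Like every gene list used here, it was drawn up with earlier results of these data known. Shares of any list set beside all genes are therefore a description only. Acads and Acadm open the oxidation of short- and medium-chain fatty acids, Cpt1a admits long-chain fatty acids to the mitochondrion, Echs1, Hadha and Hadhb carry out the later steps of beta-oxidation, Acat1 and Bdh1 belong to ketone body metabolism, and Pdk4 restrains the use of glucose. All 9 passed the filter on low counts and were among the 17893 genes tested.

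Butyrate is the preferred fuel of the absorptive cells of the colon. Once inside the cell it is joined to coenzyme A, oxidized step by step in the mitochondrion to acetyl-CoA, and burned in the citric acid cycle or turned into ketone bodies. Many of these genes are also known targets of the nuclear receptors that sense fatty acids, and Pdk4 closes the competing route by phosphorylating and switching off pyruvate dehydrogenase.

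RNA-Seq was performed on 20 C57BL/6 mice placed at weaning on the Total Western Diet (TWD), a diet modelled on American intake. After 6 weeks, 5 mice stayed on the TWD alone (0% RPS) and groups of 5 received the TWD with 2, 5 or 10% RPS for 3 more weeks, so that every mouse carried the TWD background and no mouse on ordinary chow was included. The tissue was a section of colon from near the anal end, 1 library per mouse, and the question was whether the dose of RPS moved the genes. The label in the description field set each mouse's diet, but for 3 mice the treatment field named another diet: RS10_717 (5% in the first, 2% in the second), RS10_725 (10% and 5%) and RS10_748 (2% and 10%).

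Total counts averaged 32792773 ± 1353948 on 0% RPS, 27875867 ± 2606344 on 2% RPS, 28286066 ± 3399098 on 5% RPS and 24323337 ± 3424874 on 10% RPS (SD, n = 5), and each RPS diet lay below the controls with the smallest p that 5 against 5 mice allow (0.00794, exact two-sided permutation test). Values are therefore given as CPM, counts brought to a common library size with TMM factors. The marker genes of colon epithelium were abundant in every library (summed 18170 to 26180 CPM over 14 genes), as were those of smooth muscle (6781 to 14750 CPM over 10 genes), while skeletal muscle markers reached at most 58.1 CPM and squamous markers 10.7 CPM in sum, adipocyte markers summed to 51.8 to 299 CPM and clock genes to 656 to 1157 CPM. Mouse RS10_721 (5% RPS) stood apart with 6556 CPM of pancreas acinar genes and the lowest smooth muscle sum, and RS10_784 (10% RPS) had 916 CPM, against 377 to 634 CPM in the other 18 mice. The highest adipocyte sum, 299 CPM, was also that of RS10_721, and the next was 179 CPM in RS10_731 (10% RPS). In whole tissue, fewer cells of a type and less RNA per cell cannot be told apart.

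Promoter windows from RefSeq, 250 bases before to 50 bases after each start on build GRCm38.p6 (the counts themselves were made on GRCm39), were found for 8 of the 9 genes; none was found for Acat1. The gene pair of the mitochondrial trifunctional protein is shown first because both subunits start from the same stretch of DNA. Hadha on the minus strand and Hadhb on the plus strand begin 273 bases apart, head to head, and their windows share 228 bases, chr5:30155003-30155230, printed in capitals in the plus-strand window chr5:30155003-30155302.
Hadhb: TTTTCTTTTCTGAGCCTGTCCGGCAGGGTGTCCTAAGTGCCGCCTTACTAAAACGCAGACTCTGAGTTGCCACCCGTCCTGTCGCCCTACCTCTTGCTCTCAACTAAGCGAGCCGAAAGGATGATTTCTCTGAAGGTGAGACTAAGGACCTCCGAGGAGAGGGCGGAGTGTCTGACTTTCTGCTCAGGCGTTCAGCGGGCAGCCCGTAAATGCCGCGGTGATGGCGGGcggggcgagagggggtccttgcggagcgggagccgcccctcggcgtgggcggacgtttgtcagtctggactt

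The other windows shown are the 3 that hold AGGTCA, the letters that many nuclear receptors read, on either strand (TGACCT on the printed strand where the match is on the other). The capitals mark the match in chr3:153944594-153944893 (Acadm, minus strand), chr19:3323051-3323350 (Cpt1a, plus strand) and chr7:140116372-140116671 (Echs1, minus strand).
Acadm: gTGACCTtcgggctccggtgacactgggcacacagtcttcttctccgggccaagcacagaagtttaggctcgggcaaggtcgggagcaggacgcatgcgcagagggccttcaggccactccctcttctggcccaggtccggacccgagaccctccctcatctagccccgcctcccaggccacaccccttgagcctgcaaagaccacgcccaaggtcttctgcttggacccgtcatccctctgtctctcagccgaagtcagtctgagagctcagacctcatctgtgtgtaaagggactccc
Cpt1a: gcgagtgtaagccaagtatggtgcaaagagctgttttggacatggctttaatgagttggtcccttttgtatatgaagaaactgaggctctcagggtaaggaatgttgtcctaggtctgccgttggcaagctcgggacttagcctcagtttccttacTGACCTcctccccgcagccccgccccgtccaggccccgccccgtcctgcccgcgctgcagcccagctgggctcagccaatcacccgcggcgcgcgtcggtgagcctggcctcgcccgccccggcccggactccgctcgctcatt
Echs1: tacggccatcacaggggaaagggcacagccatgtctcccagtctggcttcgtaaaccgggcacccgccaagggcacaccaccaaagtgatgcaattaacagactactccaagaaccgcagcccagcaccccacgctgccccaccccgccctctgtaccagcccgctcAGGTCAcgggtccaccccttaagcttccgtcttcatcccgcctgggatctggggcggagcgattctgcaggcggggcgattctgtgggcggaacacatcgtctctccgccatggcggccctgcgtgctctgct
Of all 32851 windows in the table, 16.3% held AGGTCA on either strand, so 3 of the 9 member windows (Bdh1 has 2) is a description only. The spaced pair AGGTCANAGGTCA, which contains it, was in 0 of the 9 member windows and in 0.0396% of all windows, and TCAAGGTCA, which also contains it, was in 0 and in 0.423%.

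Per kilobase of transcript, Hadhb was the most abundant member and Pdk4 by far the least. Over the 20 mice, Hadhb averaged 98.9 ± 9.50 CPM per kilobase, Acadm 74.7 ± 6.53, Acads 73.0 ± 5.76, Hadha 57.4 ± 4.30, Echs1 48.9 ± 4.76, Bdh1 41.1 ± 3.92, Cpt1a 33.8 ± 4.26, Acat1 33.4 ± 3.16 and Pdk4 4.06 ± 1.30 (SD, n = 20). Between most neighbours the higher gene led in 18 to 20 of the 20 mice. Acadm led Acads in only 12 mice and Cpt1a led Acat1 in 10, so neither of those pairs could be ordered. Before division by length, Hadha (232 CPM) and Cpt1a (223 CPM) were above Hadhb (201 CPM). A wrong transcript length would act alike in all 20 mice. The counts of mice therefore do not test the order of the members per kilobase. Among the genes beside them, on the same scale, Oxct1, which activates acetoacetate for use as fuel, reached 94.3 ± 6.55, the monocarboxylate transporter Slc16a1 67.5 ± 7.94, the butyrate carrier Slc5a8 52.5 ± 7.53, the acyl-CoA synthetase Acsm3 51.2 ± 8.35 and Cpt2, the partner of Cpt1a on the inner membrane, 35.5 ± 4.99.

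Acads encodes short-chain acyl-CoA dehydrogenase, the enzyme that takes butyryl-CoA into beta-oxidation (ENSMUSG00000029545, chromosome 5, 115248357 to 115257405, minus strand, GRCm39). In mice taken in the order of their numbers, its level was 140.3, 118, 135, 137 and 154 CPM on 0% RPS, 140.2, 123, 138, 127 and 136 CPM on 2% RPS, 128, 136, 116, 157 and 132 CPM on 5% RPS and 144, 139, 149, 134 and 146 CPM on 10% RPS. The 4 diets covered the same range, with the 10% RPS mice packed into its upper part and the lowest mouse on 5% RPS. The log2 fold change against 0% RPS was 0.06 at 10% RPS (SE 0.0761, 95% interval -0.10 to 0.21, edgeR adjusted p = 0.778).

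Acadm, medium-chain acyl-CoA dehydrogenase (ENSMUSG00000062908, chromosome 3, 153627989 to 153650317, minus strand), measured 149, 162, 144, 163 and 186 CPM on 0% RPS, 164, 163, 138, 150.0 and 169 CPM on 2% RPS, 131, 168, 142, 158 and 149 CPM on 5% RPS and 149, 161, 138, 149.6 and 139 CPM on 10% RPS. The highest mouse was a control, RS10_708, and the lowest was on 5% RPS, RS10_717. The log2 fold change was -0.13 at 10% RPS (SE 0.0795, 95% interval -0.29 to 0.04, edgeR adjusted p = 0.468) and -0.10 at 5% RPS, with overlapping diets throughout.

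Cpt1a, the outer-membrane carnitine palmitoyltransferase that sets the rate of long-chain fatty acid entry (ENSMUSG00000024900, chromosome 19, 3371853 to 3437996, plus strand), measured 222, 236, 189.6, 259 and 233 CPM on 0% RPS, 227, 203, 209.8, 234 and 207 CPM on 2% RPS, 160.0, 244, 185, 222 and 218 CPM on 5% RPS and 236, 239, 243, 288 and 203 CPM on 10% RPS. RS10_731 on 10% RPS was the highest of all 20 mice and RS10_717 on 5% RPS the lowest, and the means of the 5 and 10% diets lay on opposite sides of the control mean. The log2 fold change was 0.09 at 10% RPS (SE 0.105, 95% interval -0.13 to 0.30, edgeR adjusted p = 0.755) and -0.15 at 5% RPS (SE 0.105, 95% interval -0.37 to 0.07, edgeR adjusted p = 0.686).

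Echs1, the short-chain enoyl-CoA hydratase of the next step (ENSMUSG00000025465, chromosome 7, 139684839 to 139696570, minus strand), measured 104, 109.8, 115, 116 and 143 CPM on 0% RPS, 118, 113, 123, 103 and 135 CPM on 2% RPS, 116, 119, 113, 116 and 107 CPM on 5% RPS and 102, 107, 119, 94.6 and 116 CPM on 10% RPS. RS10_708 on 0% RPS and RS10_748 on 2% RPS were high, RS10_731 on 10% RPS was low, and the diets overlapped. The log2 fold change was -0.13 at 10% RPS (SE 0.0856, 95% interval -0.31 to 0.05, edgeR adjusted p = 0.501).

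Hadha and Hadhb encode the alpha and beta subunits of the trifunctional protein, which hydrates, oxidizes and cleaves long-chain acyl-CoA (ENSMUSG00000025745, chromosome 5, 30323302 to 30360187, minus strand, and ENSMUSG00000059447, chromosome 5, 30359204 to 30389997, plus strand). Hadha measured 244, 241, 220.3, 241 and 224 CPM on 0% RPS, 243, 203, 235, 227 and 197 CPM on 2% RPS, 213, 244, 206, 259.6 and 223 CPM on 5% RPS and 244, 254, 246, 245 and 228 CPM on 10% RPS. Its diets shared 1 range, with the lowest mice on 2% RPS and the highest on 5% RPS. Hadhb measured 204, 198, 182, 238 and 232 CPM on 0% RPS, 212, 181, 198, 188 and 209.9 CPM on 2% RPS, 183, 205, 187, 233 and 191 CPM on 5% RPS and 212, 224, 189, 184 and 171 CPM on 10% RPS. RS10_707, a control, was its highest mouse and RS10_784, on 10% RPS, its lowest. At 10% RPS the log2 fold change was 0.06 (95% interval -0.09 to 0.21, edgeR adjusted p = 0.765) for Hadha and -0.10 (95% interval -0.29 to 0.08, edgeR adjusted p = 0.619) for Hadhb. The annotated gene bodies overlap by 984 bases on opposite strands, and whether counting used the strand is not given in the sources used here, so a share of reads may not be assignable between the pair.

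Acat1, the mitochondrial acetoacetyl-CoA thiolase that works at the branch between the last oxidation step and ketone bodies (ENSMUSG00000032047, chromosome 9, 53450461 to 53521731, minus strand), measured 135, 137, 143, 146 and 161 CPM on 0% RPS, 151, 121, 153, 136 and 162 CPM on 2% RPS, 141, 143, 147, 148 and 139 CPM on 5% RPS and 118, 124, 159, 118 and 142 CPM on 10% RPS. Of the 10% RPS mice, RS10_725, RS10_727 and RS10_731 lay below every control, whereas RS10_729 on the same diet was above 4 of the 5 controls. The 5% RPS mice were the most tightly grouped. The log2 fold change was -0.13 at 10% RPS (SE 0.086, 95% interval -0.31 to 0.05, edgeR adjusted p = 0.502).

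Bdh1, the dehydrogenase that interconverts acetoacetate and beta-hydroxybutyrate (ENSMUSG00000046598, chromosome 16, 31241087 to 31277725, plus strand), measured 117, 130.2, 139, 99.1 and 118 CPM on 0% RPS, 118, 125, 140.4, 119 and 143 CPM on 2% RPS, 144, 122, 135, 125 and 127 CPM on 5% RPS and 122, 124, 150.1, 132 and 142 CPM on 10% RPS. The lowest mouse, RS10_707, was a control and the highest, RS10_729, was on 10% RPS, with the rest intermixed. Its mean was above the control mean on every RPS diet, with log2 fold changes of 0.10 at 2%, 0.12 at 5% and 0.15 at 10% RPS (SE 0.086, 95% interval -0.02 to 0.33, edgeR adjusted p = 0.404). These means share the same 5 control mice, and Bdh1 had the smallest unadjusted p of the 9 genes at 10% RPS (0.0872, edgeR quasi-likelihood test).

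**Figure D1:**
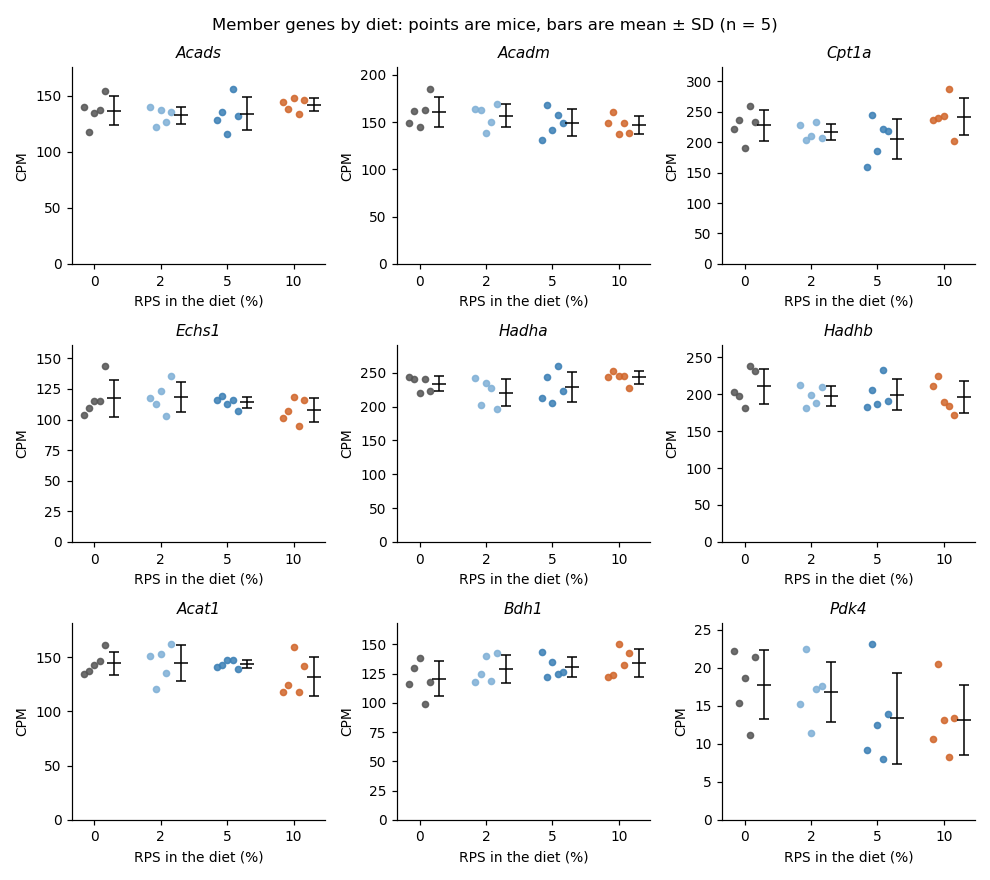
Each panel plots 1 gene, with CPM on a vertical axis that starts at 0 and the percentage of RPS in the diet on the horizontal axis; points are mice and black bars are the mean ± SD of 5 mice. The diets overlap in all 9 panels, and Pdk4 alone has points spread over most of its axis, from 8.05 to 23.1 CPM.

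Pdk4, the pyruvate dehydrogenase kinase that rises in fasting (ENSMUSG00000019577, chromosome 6, 5483097 to 5496339, minus strand), measured 22.2, 15.4, 18.6, 11.2 and 21.5 CPM on 0% RPS, 15.3, 22.4, 11.4, 17.2 and 17.6 CPM on 2% RPS, 9.12, 23.1, 12.5, 8.05 and 13.9 CPM on 5% RPS and 10.6, 20.5, 13.1, 8.23 and 13.4 CPM on 10% RPS. High and low mice occurred on every diet, and 1 mouse on 5% RPS, RS10_718, was the highest of all. Its log2 fold change was -0.44 at 10% RPS (SE 0.279, 95% interval -1.02 to 0.15, edgeR adjusted p = 0.479) and -0.41 at 5% RPS, the most negative of the 9 genes at both levels. The value at 5% RPS rested partly on single mice, being -0.71 without RS10_718 and -0.28 without RS10_721. Pdk4 counts ranged from 212 to 782, so counting error was at most 6.87% of a value, whereas the within-diet coefficient of variation was 31.6%. Its within-diet SD, 0.47 on the log2 scale, exceeded that of 97.3% of the 9966 tested genes with a mean level of 10 to 400 CPM, whose median was 0.15. Of the other 8 members, only Cpt1a (0.18) had a within-diet SD above that median. The rest, from 0.11 (Hadha) to 0.14 (Hadhb), were below it.

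No member of the set passed the test against 0% RPS at any level of RPS. At 10% RPS, 0 of 9 passed the edgeR quasi-likelihood test at an adjusted p of at most 0.05 with a fold change of at least 1.5, where 0.0391% of all genes (7 genes, all higher) did. At 5% and at 2% RPS the count was again 0 of 9, and no tested gene passed (0.0% each). The linear trend over the RPS percentage was past an adjusted p of 0.05 for 0 of 9, against 2.1% of all genes (375), and the test for any difference among diets for 0 of 9, against 0.0727% (13 genes). The smallest adjusted p of a member in any of these 5 edgeR comparisons was 0.320, for the Pdk4 trend.

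The unadjusted values gave the same count. At 10% RPS 0 of 9 members had an unadjusted edgeR p under 0.05, against 15.2% of all genes, and the numbers were 0 and 9.19% at 5% RPS, 0 and 1.41% at 2% RPS, 0 and 19.1% for the trend and 0 and 10.6% for any difference. No member had separate ranges in the controls and an RPS diet, a pattern shown by 2.28% of genes at 10%, 1.04% at 5% and 0.24% at 2% RPS. The DESeq2 and limma-voom fits also called 0 of 9 in each of the 5 comparisons, as did the edgeR fit without RS10_721 and RS10_784. Over the 9 genes the log2 fold changes had medians of -0.10 (10% RPS), -0.04 (5%) and -0.05 (2%), beside -0.01, -0.01 and -0.001 over all tested genes.

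The intervals give a range for each change, 1 gene at a time, without adjustment for their number and with diets from the description label. For 8 of the 9 genes, all but Pdk4, the 95% interval at each RPS level lay within a 1.5-fold change in either direction, where 64.9% of all genes at 10%, 67.1% at 5% and 72.2% at 2% RPS had intervals that narrow. Over those 8 genes the intervals ran from 0.808 to 1.26 times the control level at 10% RPS, from 0.776 to 1.23 times at 5% and from 0.817 to 1.21 times at 2%. For Pdk4 at 10% RPS the interval ran from 0.492 to 1.11 times.

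**Figure D2:**
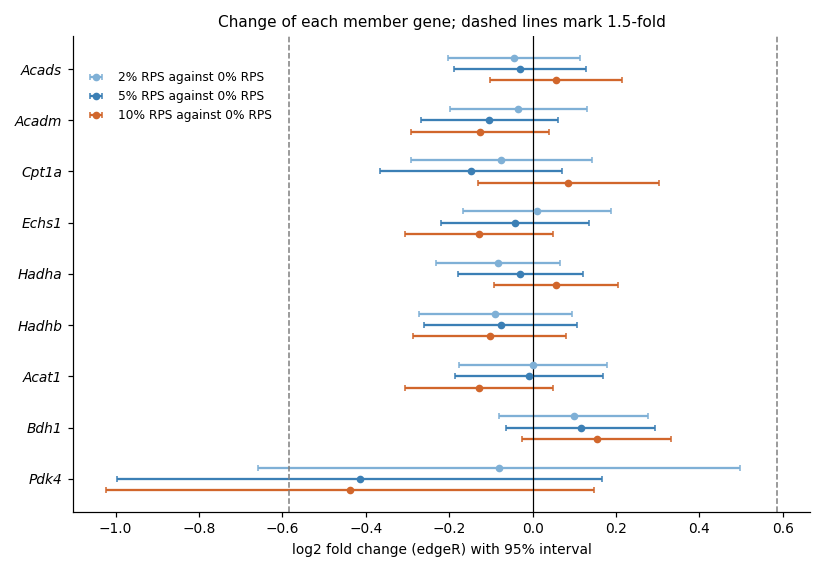
Points are log2 fold changes against 0% RPS and bars their 95% intervals from edgeR, with 1 row per gene and 1 colour per RPS level; dashed lines mark 1.5-fold in each direction. Every bar crosses 0, those of 8 genes stay inside the dashed lines, and the Pdk4 bar at 10% RPS runs from -1.02 to 0.15.

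The genes around the set were examined from 7 lists of neighbouring functions, 106 genes in all, of which 97 were tested. None passed at 10, 5 or 2% RPS, and 3 (3.09%, against 2.1% of all genes) passed the edgeR trend test, 1 rising and 2 falling. Abcd3, a transporter that brings fatty acids into the peroxisome, rose with RPS (chromosome 3, 121552423 to 121609141, minus strand). It measured 135, 130.2, 135, 120.5 and 113 CPM on 0% RPS, 128, 99.5, 128, 145 and 129 CPM on 2% RPS, 141, 128, 122, 181 and 137 CPM on 5% RPS and 155, 158, 170.1, 165 and 176 CPM on 10% RPS. All 5 mice on 10% RPS were above all 5 controls, as in 1.13% of tested genes. The trend was 0.041 log2 units per percent RPS (adjusted p = 0.0213, edgeR), and the log2 fold change was 0.38 at 10% RPS (SE 0.098, 95% interval 0.18 to 0.58, edgeR adjusted p = 0.0891).

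Acad10, a member of the acyl-CoA dehydrogenase family (chromosome 5, 121759087 to 121799017, minus strand), fell with RPS. Its level was 14.1, 14.3, 13.1, 17.3 and 16.7 CPM on 0% RPS, 15.3, 15.04, 12.9, 13.8 and 13.2 CPM on 2% RPS, 11.7, 14.8, 12.4, 12.3 and 13.8 CPM on 5% RPS and 11.2, 12.2, 11.6, 10.3 and 10.8 CPM on 10% RPS, and all 5 mice on 10% RPS were below all 5 controls, as in 1.15% of tested genes. The trend was -0.042 log2 units per percent RPS (edgeR adjusted p = 0.0190). Eci1, an isomerase needed for unsaturated fatty acids (chromosome 17, 24645606 to 24658535, plus strand), also fell, from 34.6 ± 4.58 CPM on 0% RPS to 28.0 ± 2.04 CPM on 10% RPS (SD, n = 5), with overlapping mice and a trend of -0.029 log2 units per percent (edgeR adjusted p = 0.0491). Each of these 3 calls was lost under some alternatives. All were lost when diets were taken from the treatment field (adjusted p 0.185 for Acad10, 0.259 for Eci1 and 0.189 for Abcd3), without the 3 mice whose labels disagree (0.0591, 0.137 and 0.0591) and without RS10_721 and RS10_784 (0.0628, 0.120 and 0.0550). Leaving out 1 mouse at a time, Acad10 lost its call without RS10_784 (0.0636), Abcd3 without RS10_729 (0.0522) or RS10_784 (0.0782), and Eci1 in 16 of the 20 fits. Eci1 was also lost with all 20 mice under RLE scaling (edgeR adjusted p = 0.0551), without the filter on low counts (0.0592), with thinned counts (0.0511), with Dbp as covariate (0.0937) and in limma-voom (0.0579), so that 2 of 10 other settings called it, against 7 of 10 for Acad10 and for Abcd3.

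Uptake and activation of short-chain fatty acids had 9 tested genes, with log2 fold changes centred on 0.16 at 10% RPS (median), and none passed. At 10% RPS, 3 of the 9 had an unadjusted edgeR p under 0.05, against 15.2% of all genes. Slc5a8, the sodium-coupled butyrate carrier, measured 226, 309, 228, 311 and 256 CPM on 0% RPS, 298, 274, 297, 248 and 279 CPM on 2% RPS, 258, 281, 259, 296 and 233 CPM on 5% RPS and 345, 257, 318, 374 and 341 CPM on 10% RPS. On 10% RPS, 4 of the 5 mice were above every control, and RS10_727 was not. The share of all genes with that pattern was not computed. Its log2 fold change was 0.30 at 10% RPS (SE 0.105, 95% interval 0.08 to 0.51, edgeR adjusted p = 0.183). Slc16a1 (MCT1), the proton-coupled carrier, gave 0.19 (95% interval 0.02 to 0.37, edgeR adjusted p = 0.275), and Bsg, the chaperone that brings it to the membrane, gave 0.16 (95% interval 0.02 to 0.30, edgeR adjusted p = 0.263). Acsm3, which activates butyrate, gave 0.05 (95% interval -0.26 to 0.36, edgeR adjusted p = 0.908). The 14 colon epithelium markers had a median of 0.20 at 10% RPS. Of these, 0 of 14 passed, against 0.0391% of all genes, and 5 had an unadjusted edgeR p under 0.05, against 15.2%. Slc26a3 missed only the fold threshold, with a log2 fold change of 0.57 (edgeR adjusted p = 0.0155). It ran from 918.5 to 1241 CPM on 0% RPS and from 1506 to 1782 CPM on 10% RPS. For any difference among diets 1 of 14 passed, against 0.0727% of all genes. The summed level of the 14 markers ran from 18170 to 24500 CPM on 0% RPS and from 21630 to 26180 CPM on 10% RPS. Their part in the values of the uptake and activation genes was not tested.

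Of 4 other ketone body genes, all tested, 0 passed, and their log2 fold changes at 10% RPS had a median of -0.04. Aacs, the cytosolic acetoacetate-activating enzyme, measured 74.1 ± 28.5 CPM on 0% RPS, 86.2 ± 19.9 on 2% RPS, 115 ± 33.3 on 5% RPS and 110.3 ± 42.5 on 10% RPS (SD, n = 5), and the diets overlapped. Its log2 fold change was 0.57 at 10% RPS (SE 0.291, 95% interval -0.04 to 1.19, edgeR adjusted p = 0.358). Bdh2 gave -0.41 (95% interval -0.92 to 0.10, edgeR adjusted p = 0.438), and Oxct1 gave -0.12 (95% interval -0.26 to 0.02, edgeR adjusted p = 0.412).

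Of 25 other mitochondrial beta-oxidation genes, Acad10 and Eci1 were the only ones past the trend test, and log2 fold changes at 10% RPS had a median of -0.03. Cpt2 gave 0.02 (95% interval -0.23 to 0.26, edgeR adjusted p = 0.966). Of 14 peroxisomal genes Abcd3 alone passed, and the median was 0.04. Among 13 genes of the pyruvate dehydrogenase complex with its kinases and phosphatases, which hold the relatives of Pdk4, 0 passed; the kinase Pdk2 gave -0.31 (95% interval -0.60 to -0.02, edgeR adjusted p = 0.303) and the phosphatase Pdp2 0.35 (95% interval 0.02 to 0.68, edgeR adjusted p = 0.306).

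Among 16 tested targets of the fatty acid receptors of the PPAR family 0 passed, with Acot2, an acyl-CoA thioesterase, at -0.46 (95% interval -0.90 to -0.03, edgeR adjusted p = 0.298) and Fabp2, an intestinal fatty acid binding protein, at 0.74 (95% interval -0.07 to 1.56, edgeR adjusted p = 0.373). Angptl4, a secreted inhibitor of lipoprotein lipase that responds strongly to fatty acids, gave -0.12 (95% interval -0.81 to 0.56, edgeR adjusted p = 0.901). Of 17 regulators 0 passed. Ppara, the receptor itself, was low in this tissue, at 1.30 ± 0.280 CPM per kilobase, and gave -0.43 (95% interval -0.79 to -0.06, edgeR adjusted p = 0.252), its relative Ppard gave 0.31 (95% interval 0.03 to 0.59, edgeR adjusted p = 0.279) and Prkaa2, a catalytic subunit of the energy sensor AMPK, gave 0.26 (95% interval 0.07 to 0.45, edgeR adjusted p = 0.179).

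**Figure D3:**
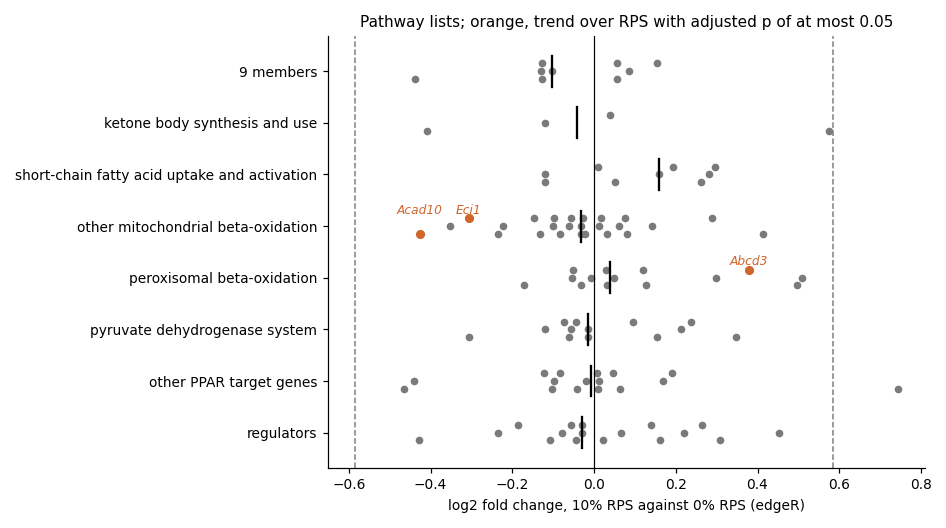
Each point is 1 tested gene, placed by its log2 fold change at 10% RPS against 0% RPS; rows are the 9 members and the 7 lists around them, vertical bars are row medians, dashed lines mark 1.5-fold, and orange marks the genes past the edgeR trend test. Of the orange points, Acad10 (-0.43) and Eci1 (-0.31) lie left of 0 and Abcd3 (0.38) to the right.

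Pairs of members were compared from mouse to mouse. Over the 20 mice, the 36 pairs of members had Pearson correlations of log2 CPM from -0.64 to 0.82, and 4 pairs passed Benjamini-Hochberg adjustment over the 36 (permutation test, two-sided, 100000 permutations). The share of all gene pairs that would pass was not computed. Whether the 4 pairs are more or fewer than among other genes was therefore not tested. Echs1 and Acat1 were the closest, with r = 0.82 (permutation p = 2e-05, adjusted 0.00072) and rho = 0.90 (p = 1e-05, the smallest these permutations can give, adjusted 0.00036). The value was 0.77 without the 2 mice farthest from the median of Echs1 and 0.80 after the diet means were subtracted.

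Hadhb went with Acadm (r = 0.66, permutation p = 0.0018, adjusted 0.0194, rho = 0.58 with adjusted p = 0.0574) and Hadha with Cpt1a (r = 0.65, permutation p = 0.0016, adjusted 0.0194, rho = 0.70 with adjusted p = 0.0149). Bdh1 went against Hadhb, with r = -0.64 (permutation p = 0.0022, adjusted 0.0194) and rho = -0.61 (adjusted 0.0574), and had negative coefficients with Acadm and Cpt1a that did not pass (-0.57 and -0.49, permutation tests, adjusted p = 0.0614 and 0.130). Without the 2 mice farthest from the median, the 3 coefficients were 0.57, 0.67 and -0.53, and within diets 0.65, 0.62 and -0.60. Hadha and Hadhb, which share the promoter region printed above, had r = 0.44 (permutation p = 0.0528, adjusted 0.173).

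**Figure D4:**
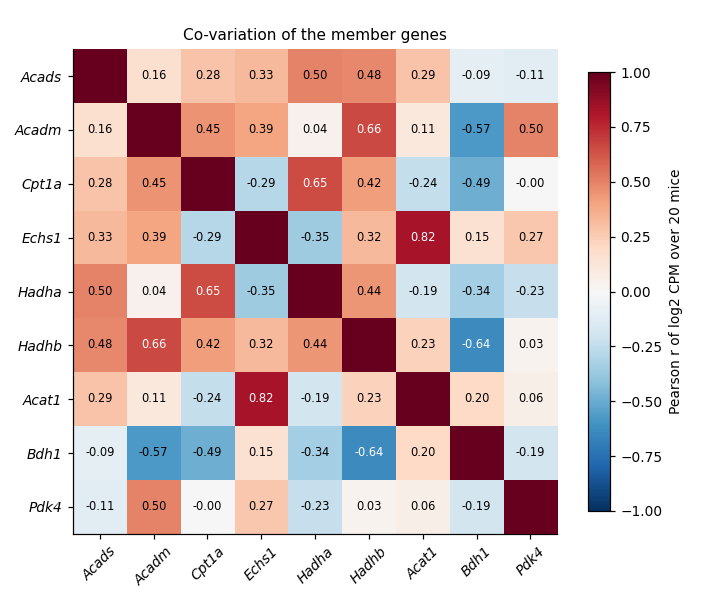
The grid gives the Pearson correlation of log2 CPM over 20 mice for each pair of members, red for positive and blue for negative. Echs1 with Acat1 is the deepest red off the diagonal (0.82), and the row of Bdh1 is blue against Hadhb (-0.64), Acadm (-0.57) and Cpt1a (-0.49).

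Marker scores of tissue make-up and a clock gene were set beside the members. Each member was set against 3 scores, the mean log2 CPM of the smooth muscle markers, that of the colon epithelium markers, and Dbp, a clock gene that ranged from 3.77 to 114 CPM, and 0 of these 27 relations passed adjustment over the 27. Pdk4 with the smooth muscle score came nearest, at r = 0.61 (permutation p = 0.0037, adjusted 0.0555) and rho = 0.60 (adjusted 0.0882), and was 0.40 without the 2 mice farthest from the median. Bdh1 with the epithelial score gave r = 0.62 (permutation p = 0.0041, adjusted 0.0555) and rho = 0.60 (adjusted 0.0882), with 0.59 without the 2 farthest mice and 0.55 within diets. The epithelial sum had medians of 20860, 20930, 22970 and 23210 CPM from 0 to 10% RPS, and 3 of its 14 genes, Slc26a3, Krt20 and Cdh17, passed the edgeR trend test as rising, against 2.1% of all genes. The marker list was chosen with earlier results of these data known, so this share is a description only. With the treatment label none of the 3 passed (adjusted p 0.168, 0.212 and 0.214). Krt20 and Cdh17 did not pass without the 3 mice whose labels disagree (0.0698 and 0.0591) or without RS10_721 and RS10_784 (0.0774 and 0.0656), while Slc26a3 did. Without RS10_784 alone Krt20 (0.0900) and Cdh17 (0.102) did not pass, nor did either without RS10_708 (0.0551 and 0.0622), nor Cdh17 without RS10_729 (0.0679) or RS10_731 (0.0616). The part of the epithelial genes in the Bdh1 values was not tested.

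**Figure D5:**
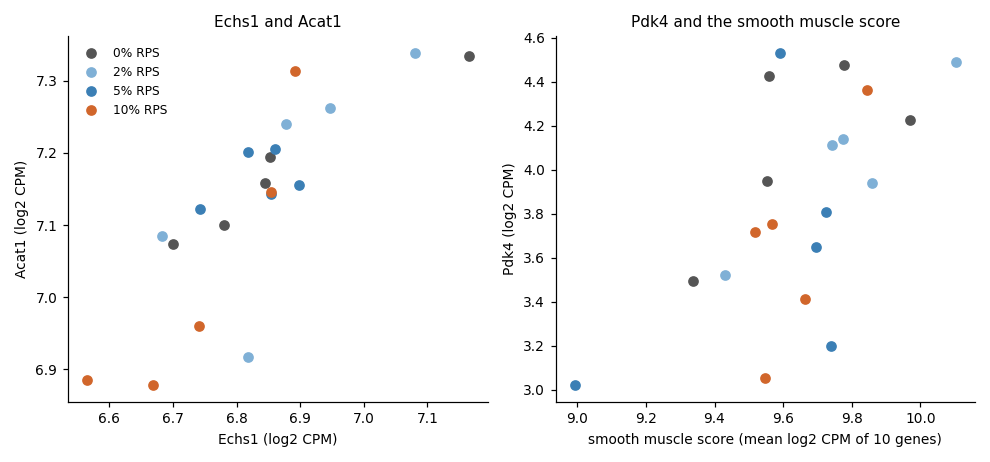
Both panels show 1 point per mouse, coloured by diet, on log2 axes: on the left Acat1 against Echs1, on the right Pdk4 against the mean of the 10 smooth muscle markers. On the left the points of all 4 diets follow 1 rising band (r = 0.82), and on the right the lowest point on both axes is RS10_721.

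The genes most like each member across the 20 mice were found by Pearson correlation of log2 CPM over all tested genes, as a description with no test, since the highest of so many coefficients is large by selection. Acat1 was nearest to Fh1, fumarase of the citric acid cycle (0.88), and Ndufa9, a subunit of respiratory complex I (0.86), and Echs1 to Pdha1, a subunit of pyruvate dehydrogenase (0.85), and Csrp2 (0.84). Bdh1 was nearest to Sec13 (0.87) and Fdps, an enzyme of sterol synthesis (0.85). Pdk4 was nearest to Fam180a (0.90) and Sesn1, a stress-induced sestrin (0.85).

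For the acyl-CoA enzymes the nearest genes were Polr1c (0.82) and Eif4b (0.82) for Acadm, and Pgap2 (0.73) and Nol4 (0.71) for Acads, the lowest coefficients of the 9. Nol4 averaged only 0.344 CPM, a low level at which counting error is large. Hadhb was nearest to Fbh1 (0.84) and Zfp768 (0.83), Hadha to Rgl3 (0.81) and Slc4a2, an anion exchanger (0.78), and Cpt1a to Entpd5 (0.79) and Xpr1, a phosphate exporter (0.78). No member was among the 2 nearest genes of another.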

How the data were processed

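RNA from the distal colon of 20 mice, 5 per diet, was sequenced with a stranded mRNA kit, 1 library per mouse. According to the study's methods, bases under Q30 and reads with more than 2 ambiguous bases were removed and reads were mapped to GRCm39 in CLC Genomics Workbench. The deposited values are raw read counts per gene made by the authors, whole numbers with no normalization. The annotation release, the strand setting and the treatment of multi-mapping reads are not given in the sources used here. The authors' own test, DESeq2, was run here as an alternative, and the thresholds were theirs.

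Diets followed the description label, and the edgeR tests set differences between diets against the spread between mice, with 1 library per mouse. Of 26619 identifiers, 26338 were named through GENCODE vM39, and 281 kept their identifiers. Genes passing filterByExpr (minimum count 10) numbered 17893. TMM scaling and the robust quasi-likelihood F-test of edgeR 4.0.16 in R 4.3.3 were used, fitted to all genes and mice. The pairwise and any-difference tests shared a fit and its spread estimate, and the trend had its own. P-values were adjusted over all tested genes by the Benjamini-Hochberg method. Pairwise calls needed an adjusted p of at most 0.05 and a fold change of at least 1.5, and trend and any-difference calls the adjusted p alone. Intervals (95%) came from the quasi-likelihood standard error. Log2 CPM had a prior count of 2. Levels per kilobase divide CPM by the length of the GENCODE canonical transcript. Correlations used 100000 permutations of mice.

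Alternatives were limma-voom (limma 3.58.1), DESeq2 1.42.0, RLE scaling, no filter, the other label, leaving out mice, 2 diets alone, thinning to the smallest library (18429493 counts), and the smooth muscle score or Dbp as covariate. The fit without RS10_721 and RS10_784 was added after their pancreas counts were seen. Scripts were tested on simulated data. No 2 libraries of a diet were duplicates (chi-square per degree of freedom 9.10 to 62.9 over 40 pairs).

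The 9 genes and all lists, including the markers of colon epithelium, smooth muscle, skeletal muscle, adipocytes, squamous epithelium and pancreas and the clock genes, were chosen with earlier results of these data known. Named genes were the 9 members, a set of 7 neighbours in the pathway (Slc16a1, Slc5a8, Acsm3, Oxct1, Ppara, Cpt2 and Angptl4), for each list the genes called in any comparison or otherwise the 2 with the smallest trend p, and for each member the 2 genes with the highest correlation. A further 2 genes of the lists are not reported here.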

Additional observations from a re-analysis of the deposited data

How the results depend on the processing

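The count of members called was 0 of 9 in all 5 comparisons under every alternative run, including each fit without 1 mouse, and the lowest adjusted p of any member was 0.101 (Pdk4 trend). Directions held except for values near 0. With the treatment label, the log2 fold change became -0.00028 for Hadha at 10% RPS, 0.0027 for Acads and 0.0090 for Hadha at 5%, and -0.039 for Echs1 and -0.041 for Acat1 at 2%. Without the 3 mice whose labels disagree it became 0.00063 for Hadha and 0.0014 for Acat1 at 5%, and -0.040 for Echs1 and -0.041 for Acat1 at 2%. With thinned counts it became -0.0054 for Echs1 and -0.016 for Acat1 at 2%, where Acat1 was also -0.00034 with RLE scaling and -0.0037 with limma-voom. Without 1 mouse at a time, it ran at 10% RPS from 0.015 to 0.14 for Cpt1a and -0.17 to -0.047 for Echs1, at 5% RPS from -0.096 to 0.011 for Acads, -0.090 to 0.033 for Echs1, -0.081 to 0.0015 for Hadha and -0.041 to 0.027 for Acat1, and at 2% from -0.070 to 0.020 for Acadm, -0.042 to 0.089 for Echs1, -0.042 to 0.059 for Acat1 and -0.21 to 0.030 for Pdk4.

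The count of all genes called was less stable. At 10% RPS (7 genes) it was 12 with no fold threshold, 13 with RLE scaling, 0 with the treatment label, 0 without the 3 mice, 3 with the 2 diets alone, 28 with the smooth muscle score and 15 with Dbp as covariate, 210 with DESeq2 and 5 to 188 without 1 mouse, the most without RS10_727 and the fewest without RS10_784. At 5% RPS (0 genes; 1644 at an unadjusted p under 0.05) it was 1 with the 2 diets alone, 31 with DESeq2 and 0 to 1 without 1 mouse, and at 2% (0 genes; 253 at an unadjusted p under 0.05) 1 with DESeq2. The trend (375 genes) gave 0 with the treatment label, 56 without the 3 mice, 60 without RS10_721 and RS10_784, 985 with DESeq2 and 24 (without RS10_784) to 1148 (without RS10_727) without 1 mouse. Any difference (13 genes) gave 8 with RLE scaling, 0 with the treatment label, 0 without the 3 mice, 6 with thinned counts, 4 without RS10_721 and RS10_784, 8 with limma-voom, 349 with DESeq2 and 0 to 42 without 1 mouse. The cause of these shifts was not tested. Depth gave every member at least 212 counts per mouse, so counting error was small beside the spread between libraries. With 1 library per mouse, that spread cannot be divided among animal, dissection and library preparation. With 5 mice per diet and unsorted tissue, changes in 1 cell type that leave the total unchanged would not be seen. No paired analysis was possible because the mouse numbers are unique to each diet.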
